A study of Mus musculus with 8 samples.

Results

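Toll-like receptors are the pattern receptors with which macrophages sense microbes, and Cd14 is the co-receptor that hands lipopolysaccharide (LPS) to one of them. Of the 24421 gene symbols in the count tables, 10 were described here: the surface receptors Tlr1, Tlr2, Tlr4 and Tlr6, the endosomal receptors Tlr3, Tlr7, Tlr8, Tlr9 and Tlr13, and Cd14. They were chosen by symbol, with earlier results of these data known. All 10 were among the 13821 genes with enough counts to be tested.

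The RNA came from primary mouse macrophages of 3 genotypes, all from mice on a normal diet. WT (wild type) had 3 libraries, LysM-DKO had 3 and ABCG1KO had 2. LysM-DKO is the sample label, the design text speaks of an epsin double knockout, and these were taken to be 1 group. Epsins are clathrin adaptors, ABCG1 is a cholesterol exporter, and a LysM (Lyz2) promoter drives expression in myeloid cells. The labels give neither the tissue the macrophages came from nor the age, sex or strain of the mice, and they do not say whether the replicates came from separate animals, so the p-values measure only the spread between these libraries.

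Surface receptors bind lipids and proteins of microbes at the plasma membrane, with Tlr2 pairing with Tlr1 or Tlr6 and Tlr4 working with Cd14 and Ly96. Endosomal receptors bind nucleic acids after transport by Unc93b1 and cleavage by proteases. Most of them signal through Myd88, Tlr3 signals through Ticam1 (TRIF), and Tlr4 uses both adaptors, which lead to NF-kappa B and interferon regulatory factors. In tissue macrophages these receptors are known for setting which microbial products the cell answers.

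Libraries held 29567615 to 41888516 counts in genes, so that a count of 0 allowed a level of up to 0.0716 to 0.101 CPM (counts scaled for library size, on the usual scale of that name), by counting error alone. All 8 of 8 macrophage markers, the member Cd14 among them, had counts in every library. Their levels differed between genotypes in both directions. Adgre1 was at 511, 767 and 540 CPM in WT and at 1347 and 1451 CPM in ABCG1KO. Cd68 was at 2662, 2124 and 2343 CPM in WT and at 917 and 1369 CPM in ABCG1KO. Mertk, at 154 and 165 CPM in ABCG1KO, lay within its WT range of 102 to 225 CPM. Abcg1 was at 384 ± 34.6 CPM in WT and 66.9 ± 9.16 CPM in ABCG1KO (SD, n = 3 and 2). Epn1 was at 208 ± 19.6 CPM in WT and 169 ± 14.1 CPM in LysM-DKO, and Epn2 at 7.34 ± 2.08 and 8.40 ± 4.20 CPM (SD, n = 3 each). Epn1 was lower in every LysM-DKO library than in every WT library, as were 9.98% of all genes. Neither epsin passed the test in that comparison, so the test did not show the labelled knockout. Lyz2 was at 6176, 8104 and 6265 CPM in LysM-DKO against 13002, 15145 and 15707 CPM in WT. LysM-DKO below means the libraries labelled LysM-DKO. The male-specific Ddx3y was at 94.7 and 92.5 CPM in ABCG1KO and at 81.6 CPM in replicate 1 of LysM-DKO, with at most 2 counts in any other library. Xist, which is expressed from the inactive X chromosome of females, was the reverse, with at most 2 counts in those 3 libraries. Sex and genotype therefore cannot be told apart between ABCG1KO and WT outside a fit that rests on the single Ddx3y-positive LysM-DKO library. The ABCG1KO libraries stood apart in a further way, with 6.84% of counted reads aligned to several loci on average, against 2.94% in WT and 2.80% in LysM-DKO.

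Tlr1 and Tlr6 lie side by side on chromosome 5 and share coding sequence, which is shown because reads inside it cannot be given to one gene by an aligner. The longest identical stretch had 229 bases. It is exonic and coding in both genes, at chr5:64925537-64925765 in Tlr1 (coding bases 1468 to 1696 of 2385) and at chr5:64953828-64954056 in Tlr6 (coding bases 1507 to 1735 of 2418), in GRCm38 on the minus strand.
Tlr1 and Tlr6: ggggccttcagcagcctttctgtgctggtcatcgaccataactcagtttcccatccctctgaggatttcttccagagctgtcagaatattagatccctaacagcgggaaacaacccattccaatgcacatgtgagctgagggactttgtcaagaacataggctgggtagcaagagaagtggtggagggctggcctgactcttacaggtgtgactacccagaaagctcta
Of all 50-base windows of their exons, 15.4% in Tlr1 and 12.3% in Tlr6 occurred in another gene. The share was 5.30% for Tlr3, with a gene model that overlaps it, 0.216% for Tlr4 and 0 for the other 6 members. In this respect the levels of Tlr1 and Tlr6 are the least certain of the set.

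Promoter sequence was available from the RefSeq table (GRCm38.p6) for 7 of the 10 members, with 9 start sites, and was searched in the 250 bases before each start. Tlr2, the member with the largest change, and Tlr13, the most abundant receptor in WT, are shown by the stretch before their first annotated exon. Tlr2 lies on the minus strand at chr3:83836272-83841767 and the stretch at chr3:83841768-83841858. Tlr13 lies on the plus strand at chrX:106143204-106160493 and the stretch at chrX:106143025-106143203.
Tlr2: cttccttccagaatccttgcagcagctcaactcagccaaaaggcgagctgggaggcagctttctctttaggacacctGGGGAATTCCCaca
Tlr13: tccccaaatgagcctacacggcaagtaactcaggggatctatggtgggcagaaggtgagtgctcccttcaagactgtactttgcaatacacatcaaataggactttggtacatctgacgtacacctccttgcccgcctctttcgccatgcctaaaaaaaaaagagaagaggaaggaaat
The capitals mark a match to a wide kappa B type, the loose form of the NF-kappa B consensus, which was searched after this sequence had been seen. It matched the Tlr2 window at overlapping places 172 and 173 bases before the RefSeq start, the window of Tlr3 too, and 7.25% of the 32851 promoters in the table. The other motifs, likewise searched on both strands, were a PU.1 type (GAGGAAGT), a narrow kappa B type that is part of the wide one, an interferon response type and an AP-1 type (TGANTCA), which occurred in 2.44%, 1.21%, 2.98% and 6.75% of the promoters. None of those 4 was in the windows of Tlr2 or Tlr13. Among the members, Tlr1 held the PU.1 type 23 bases before a start, Tlr3 the narrow kappa B type, Tlr6 the interferon response type at overlapping places and Tlr9 the AP-1 type 58 bases before its start. The windows with the Tlr3 and Tlr6 matches, chr8:45410381-45410630 and chr5:64959167-64959416, lie inside the annotated genes. The window of the other Tlr6 start, chr5:64960049-64960298, held none of the motifs. A match describes the letters only.

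The order of the members was compared per kilobase of annotated exon, in mean CPM per kb ± SD. In WT, Tlr13, which binds bacterial ribosomal RNA, stood highest at 107.3 ± 31.8 CPM per kb. Cd14 followed at 80.0 ± 23.7, with libraries that overlapped those of Tlr13. The single-stranded RNA receptors Tlr8 and Tlr7 were next at 35.4 ± 13.4 and 19.8 ± 2.91 CPM per kb. The surface receptors came below them, with Tlr1 at 16.5 ± 4.74, Tlr4 at 14.02 ± 4.49, Tlr2 between 8.96 and 10.5 over its libraries, and Tlr6 at 6.24 ± 0.487 CPM per kb. Tlr9 at 2.94 ± 0.954 and Tlr3 at 2.76 ± 0.538 CPM per kb were lowest (SD, n = 3 each). Neighbours from Tlr8 down to Tlr4 overlapped in their WT libraries, as did Tlr9 and Tlr3, whereas Tlr4, Tlr2, Tlr6 and Tlr9 were separated from one another.

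LysM-DKO had the same 4 genes at the top and Tlr9 and Tlr3 at the bottom. Tlr2 took the fifth place there, at 16.7 ± 6.28 CPM per kb, and its libraries overlapped those of Tlr4 and Tlr1. In ABCG1KO the order was another one: Cd14 stood at 293 ± 157 CPM per kb, Tlr2 at 133.5 ± 61.8 and Tlr13 at 70.6 ± 9.73 (SD, n = 2). Tlr4 fell to eighth place at 6.15 ± 0.816 CPM per kb, below Tlr6 at 7.47 ± 0.661. Further mouse receptors, which were no members, were low: Tlr5, the flagellin receptor, reached at most 1.17 CPM, Tlr11 at most 0.883 CPM, and Tlr12 reached 4.47 CPM in replicate 2 of WT and 1.32 CPM in replicate 2 of LysM-DKO.

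Tlr2, which senses bacterial lipoproteins, rose in ABCG1KO by more than any other member. It was at 31.7, 27.0 and 31.8 CPM in WT, at 42.7, 71.8 and 36.4 CPM in LysM-DKO, against 534 and 271 CPM in ABCG1KO. Both ABCG1KO libraries lay far above the other 6, although they differed from each other 1.97-fold. The log2 fold change was 3.74 (SE 0.360) against WT, a 13.4-fold higher level, with an adjusted p of 0.000487 by edgeR's quasi-likelihood test. Against LysM-DKO it was 3.00 (SE 0.351), an 8.003-fold higher level with an adjusted p of 0.00164. Both comparisons use the same 2 ABCG1KO libraries. Every LysM-DKO library also stood above every WT library, with a log2 fold change of 0.74 (SE 0.312) that did not pass the test (adjusted p 0.425).

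Tlr1, the partner of Tlr2 for triacylated lipopeptides, was at 66.2, 62.7 and 37.2 CPM in WT, at 61.3, 33.5 and 37.8 CPM in LysM-DKO, against 83.7 and 75.3 CPM in ABCG1KO. The ABCG1KO libraries were the highest of the 8, but the log2 fold change of 0.52 (SE 0.309) against WT did not pass the test (adjusted p 0.286). Tlr6, the partner for diacylated lipopeptides, was at 21.7, 25.2 and 22.8 CPM in WT, at 25.6, 18.4 and 17.4 CPM in LysM-DKO, against 29.6 and 26.1 CPM in ABCG1KO. It varied least over the 3 genotypes, with a log2 fold change of 0.26 (SE 0.196, adjusted p 0.404) in ABCG1KO against WT. The large difference in Tlr2 was thus measured beside values of both partner receptors that did not pass the test, in the comparison with WT and in that with LysM-DKO (adjusted p 0.106 for Tlr1 and 0.166 for Tlr6).

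Tlr4, the LPS receptor, encoded at chr4:66827584-66930284 on the plus strand, went the other way. It was at 66.9, 106 and 60.2 CPM in WT, at 88.9, 99.0 and 58.1 CPM in LysM-DKO, against 30.9 and 37.4 CPM in ABCG1KO. Both ABCG1KO libraries were below all 6 others. The log2 fold change was -1.19 (SE 0.306, adjusted p 0.0349) against WT and -1.26 (SE 0.307, adjusted p 0.0335) against LysM-DKO, or 43.9% and 41.7% of the reference level. The call against WT was lost without either ABCG1KO library and without replicate 1 or replicate 2 of WT, with log2 fold changes that stayed below 0 in each. Against LysM-DKO it was lost without either ABCG1KO library and without replicate 1 or 2 of LysM-DKO.

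Cd14, a membrane-anchored LPS-binding protein that delivers LPS to Tlr4 and Ly96, rose in ABCG1KO. It was at 160, 164 and 91.1 CPM in WT, at 122, 221 and 176 CPM in LysM-DKO, against 700 and 314 CPM in ABCG1KO. The lower ABCG1KO library was still above all 6 others. The log2 fold change was 1.87 (SE 0.397) against WT, 3.66-fold with an adjusted p of 0.0185, and 1.55 (SE 0.395) against LysM-DKO, 2.93-fold with an adjusted p of 0.0392. Without replicate 1 of ABCG1KO, the higher library, the log2 fold change against WT was 1.17 and the adjusted p 0.119, and without replicate 3 of WT, the lowest library, the call was lost too. The call against LysM-DKO was lost without replicate 1 of ABCG1KO, without any 1 of the 3 LysM-DKO libraries, and without replicate 1 or 2 of WT. With the replicate number as a block, Cd14 was not called in either comparison (adjusted p 0.0627 and 0.130). Cd14 and Tlr4, which act at the same step, therefore differed in opposite directions in the same libraries. The ratio of Cd14 to Tlr4 in CPM per kb was 4.85 to 7.69 in WT, 4.42 to 9.74 in LysM-DKO, and 72.6 and 27.0 in ABCG1KO.

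**Figure D1:**
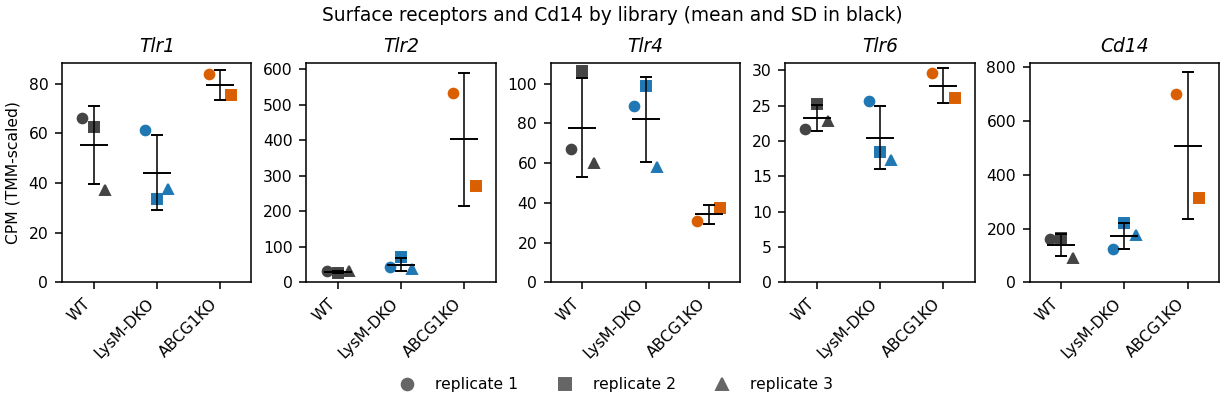
CPM of the 4 surface receptors and Cd14 in each library by genotype, with the mean and SD in black and marker shapes for the replicates; axes start at 0 and differ between genes. Both ABCG1KO libraries are the highest of the 8 for Tlr1, Tlr2, Tlr6 and Cd14 and the lowest for Tlr4.

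Tlr3, which binds double-stranded RNA and lies at chr8:45395665-45411080 on the minus strand, was the endosomal receptor that passed the test. It was at 11.2, 15.9 and 16.1 CPM in WT, at 18.3, 24.0 and 14.9 CPM in LysM-DKO, against 7.09 and 7.57 CPM in ABCG1KO, where both libraries were below all others. It fell by a log2 fold change of -0.97 (SE 0.262, adjusted p 0.0402) against WT, to 50.9% of the WT level, and of -1.38 (SE 0.266, adjusted p 0.0146) against LysM-DKO. The call against WT was lost under 9 of the 17 alternatives, among them the removal of either ABCG1KO library, of replicate 2 or 3 of WT, or of replicate 1 of LysM-DKO. The log2 fold change stayed between -1.13 and -0.74 in all 17. Against LysM-DKO the call was lost without replicate 1 of ABCG1KO.

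Tlr7, a receptor for single-stranded RNA at chrX:167304929-167330558, beside Tlr8 at chrX:167242696-167264329 and like it on the minus strand, was at 79.0, 93.7 and 70.2 CPM in WT, at 127, 147 and 59.8 CPM in LysM-DKO, against 158 and 141 CPM in ABCG1KO. It was above all WT libraries in ABCG1KO, with a log2 fold change of 0.88 (SE 0.328) and an adjusted p of 0.107. Tlr8 was at 72.0, 148 and 160 CPM in WT, at 151, 146 and 129 CPM in LysM-DKO, against 55.1 and 80.3 CPM in ABCG1KO. Its log2 fold change against WT was -0.91 (SE 0.331, adjusted p 0.102), and replicate 1 of WT lay within the ABCG1KO range. The neighbours Tlr7 and Tlr8 therefore had opposite signs, neither past edgeR's test, while DESeq2 called both against WT (adjusted p 0.0445 for Tlr7 and 0.0338 for Tlr8). With both groups fitted alone, Tlr7 passed in edgeR as well (adjusted p 0.0245). Their ratio in CPM per kb was 0.384 to 0.964 in WT, 0.407 to 0.884 in LysM-DKO, and 2.51 and 1.54 in ABCG1KO, so that Tlr7 exceeded Tlr8 only in the 2 ABCG1KO libraries of the 8.

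Tlr13 is also encoded on chromosome X. It was at 304, 532 and 549 CPM in WT, at 487, 567 and 582 CPM in LysM-DKO, against 274 and 333 CPM in ABCG1KO. The ABCG1KO libraries lay below every LysM-DKO library but overlapped WT through its replicate 1. The log2 fold change was -0.60 (SE 0.263, adjusted p 0.157) against WT and -0.84 (SE 0.265, adjusted p 0.0708) against LysM-DKO. Without replicate 1 of WT, Tlr8 and Tlr13 passed the test against WT, at log2 fold changes of -1.19 and -0.83 (adjusted p 0.0168 and 0.0338). They passed against LysM-DKO without it too. DESeq2 on all 8 libraries called Tlr8 but not Tlr13 against WT (adjusted p 0.0338 and 0.0880), and both against LysM-DKO (0.0122 and 0.0134). Tlr7 passed against WT without replicate 3 of LysM-DKO, and Tlr1 against LysM-DKO without replicate 1 of LysM-DKO. Replicate 1 of WT was also the WT library with the lowest Xist, at 79.0 CPM against 193 and 200 CPM.

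Tlr9, which binds unmethylated CpG DNA and lies at chr9:106222598-106226883 on the plus strand, had the widest relative spread of the members in LysM-DKO and in ABCG1KO. It was at 8.65, 14.1 and 8.02 CPM in WT, at 14.2, 22.9 and 5.20 CPM in LysM-DKO, against 3.14 and 8.77 CPM in ABCG1KO. Within LysM-DKO its libraries differed 4.41-fold. No comparison of Tlr9 passed the test, and its log2 fold change against WT in ABCG1KO was -0.78 with an SE of 0.644 (adjusted p 0.448).

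**Figure D2:**
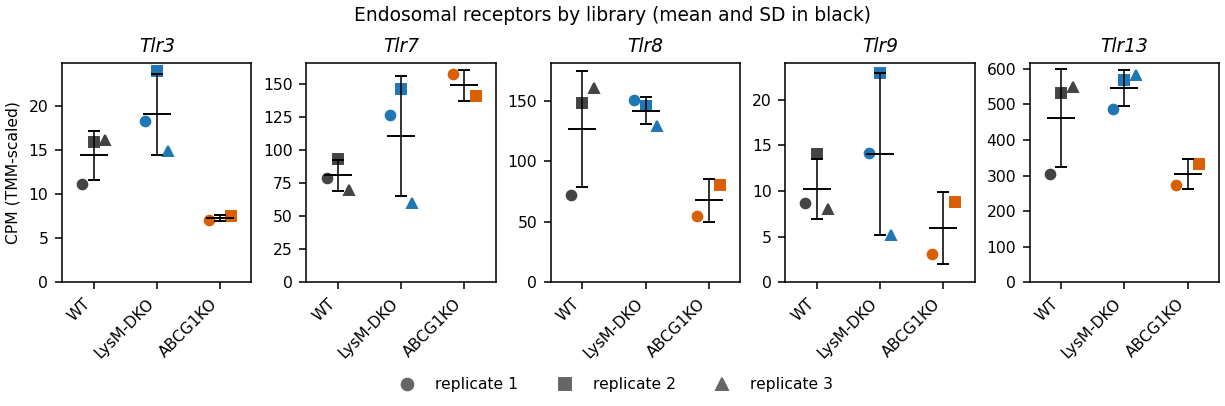
CPM of the 5 endosomal receptors in each library by genotype, with the mean and SD in black and marker shapes for the replicates; axes start at 0 and differ between genes. Both ABCG1KO libraries are the lowest for Tlr3, above all WT libraries for Tlr7, and overlap the WT libraries for Tlr8, Tlr9 and Tlr13.

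In LysM-DKO against WT, none of the 10 members passed edgeR's test, where 0.0362% of all genes did (5 of 13821; 0.0217% higher and 0.0145% lower) and DESeq2 called 299 genes and again no member. At an unadjusted p under 0.05, 1 of 10 members (Tlr2) and 11.7% of all genes were found. Tlr2 was also the only member whose groups did not overlap, beside 21% of all genes (11% higher and 9.98% lower). The log2 fold changes ranged from -0.33 (Tlr1) to 0.74 (Tlr2). All 5 endosomal receptors had positive values, with a median of 0.40 against -0.05 for the 4 surface receptors and 0.02 over all genes tested. The values for Tlr8 and Tlr9 turned negative on leaving out 1 library each, replicate 1 of WT and replicate 2 of LysM-DKO.

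In ABCG1KO against WT, 4 of 10 members passed, where 16% of all genes did (7.21% higher and 8.83% lower). Tlr2 and Cd14 rose, and Tlr4 and Tlr3 fell. The groups did not overlap for 7 members, beside 48.2% of all genes. Of these, 5 were higher (Tlr1, Tlr2, Tlr6, Tlr7 and Cd14), beside 23.9% of all genes, and 2 lower (Tlr4 and Tlr3), beside 24.2%. At an unadjusted p under 0.05, 7 of 10 members and 31.5% of all genes were found. Of the 4 surface receptors 3 had positive and 1 a negative log2 fold change (median 0.39), and of the 5 endosomal receptors 1 had a positive and 4 a negative one (median -0.78), where the median of all genes was 0.01. In a fit with sex as a term, which rests on 1 LysM-DKO library, Tlr1 and Tlr6 turned negative. The surface median there changed sign to -0.26, and the endosomal median was -0.79. Without replicate 1 of ABCG1KO, 1 member (Tlr2) passed, and without replicate 2, Tlr2 and Cd14 passed.

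In ABCG1KO against LysM-DKO, the same 4 members passed in the same directions, where 13.4% of all genes did (5.64% higher and 7.76% lower). That comparison shares the ABCG1KO libraries with the one before. The groups did not overlap for 8 members, beside 48.2% of all genes. Tlr1, Tlr2, Tlr6 and Cd14 were higher, beside 22.6% of all genes, and Tlr4, Tlr3, Tlr8 and Tlr13 lower, beside 25.6%. At an unadjusted p under 0.05, 7 of 10 members and 30.9% of all genes were found. Medians were 0.65 for surface and -1.07 for endosomal receptors, and -0.03 for all genes.

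**Figure D3:**
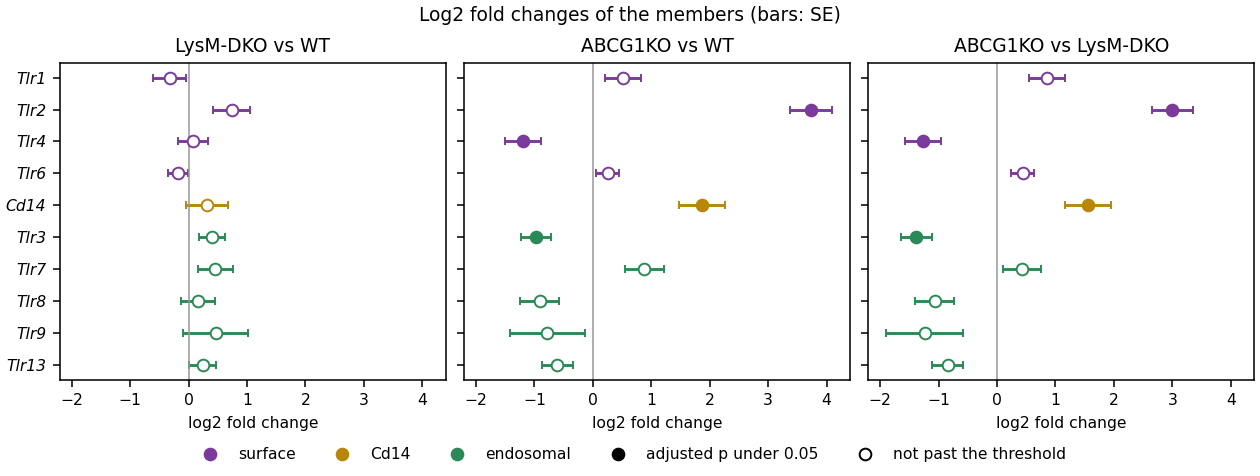
Log2 fold changes of the 10 members in the 3 comparisons, with the SE as bars, colours for the receptor class, and filled points for an adjusted p under 0.05. No point is filled in LysM-DKO against WT, and Tlr2, Cd14, Tlr4 and Tlr3 are filled in both comparisons with ABCG1KO.

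Summed over the class in CPM per kb, the endosomal receptors exceeded the surface receptors 2.38-, 3.64- and 5.05-fold in the WT libraries and 3.50-, 3.88- and 4.95-fold in LysM-DKO. In ABCG1KO the ratio was 0.556 and 1.10, below all 6 others. Tlr2 made up 16.7% to 27.3% of the surface sum in WT, 25.6% to 42.1% in LysM-DKO, and 82.1% and 71.3% in ABCG1KO. With Tlr2 left out, the ratio was 3.05, 4.36 and 6.95 in WT, 4.70, 6.70 and 7.21 in LysM-DKO, and 3.11 and 3.82 in ABCG1KO, where it overlapped WT and lay below every LysM-DKO library. Tlr13 made up 53.1% to 71.1% of the endosomal sum over the 8 libraries.

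**Figure D4:**
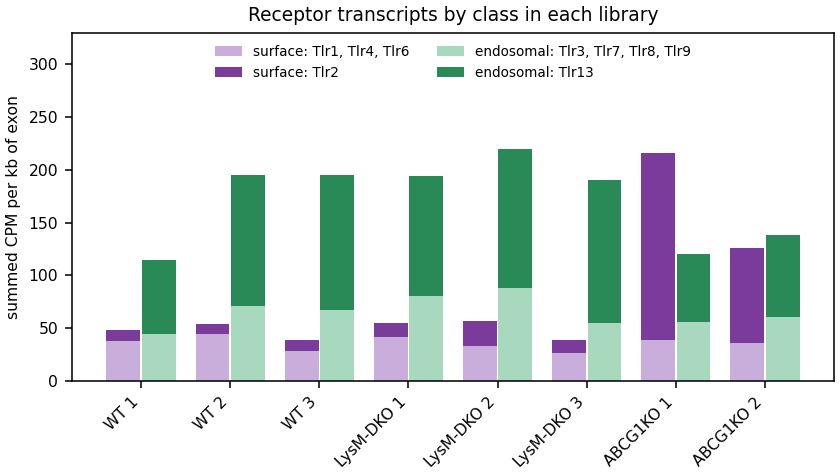
Summed CPM per kb of exon in each library for the 4 surface receptors (purple, Tlr2 darker) and the 5 endosomal receptors (green, Tlr13 darker), from a linear axis at 0. In the 2 ABCG1KO libraries the Tlr2 part is 82.1% and 71.3% of the surface bar, and the rest of that bar lies within the range of the other libraries.

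The Ddx3y-positive library of LysM-DKO allows the members to be set beside ABCG1KO within the same sex pattern, in 1 library against 2 and so without a test. Tlr2 was at 42.7 CPM in that library against 534 and 271, Cd14 at 122 against 700 and 314, Tlr4 at 88.9 against 30.9 and 37.4, and Tlr3 at 18.3 against 7.09 and 7.57 CPM. The ABCG1KO and LysM-DKO libraries did not overlap for any of these genes, so every LysM-DKO library had to give these directions. Tlr1 was at 61.3 CPM in the Ddx3y-positive library against 83.7 and 75.3, and Tlr6 at 25.6 against 29.6 and 26.1 CPM. Of the receptors encoded on chromosome X, Tlr7 was at 127 CPM against 158 and 141, and Tlr8 at 151 against 55.1 and 80.3 CPM. Tlr13 was at 487 CPM against 274 and 333, and Tlr9 of chromosome 9 at 14.2 against 3.14 and 8.77 CPM. In the fit with sex as a term, which rests on that library, Tlr2 was the only member still past the threshold. Its log2 fold change against WT was between 3.16 and 4.14 over all 17 alternatives, and it was called in each of them.

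Marker genes of other cell types also moved with the genotype. Summed levels of 5 monocyte markers were 4.81 to 64.8 CPM in WT, 18.8 to 119.9 CPM in LysM-DKO, and 230 and 406 CPM in ABCG1KO. All 5 had counts in both ABCG1KO libraries, while Ly6c2 was at 0 in replicate 1 of WT and in replicates 1 and 2 of LysM-DKO. F13a1 carried most of those sums, at 257.9 and 187 CPM in ABCG1KO and 115 CPM in replicate 2 of LysM-DKO. Ccr2 was at 127 and 40.2 CPM in ABCG1KO and at most 5.47 CPM elsewhere. Plac8, at 3.54 and 0.637 CPM in ABCG1KO, lay on either side of its 0.776 to 3.01 CPM in WT. Of 7 markers of resident peritoneal macrophages, the sum was 13.97 to 155.9 CPM in WT, 8.75 to 42.3 CPM in LysM-DKO, and 141.4 and 689 CPM in ABCG1KO. Single genes carried those sums: Prg4 was at 499.7 and 60.7 CPM in ABCG1KO and at most 2.52 CPM elsewhere, whereas Cxcl13 was at 110.1 CPM in replicate 2 of WT and at 50.7 and 20.5 CPM in ABCG1KO. The part of these cells in the results was not tested, and in RNA from whole samples fewer cells of a type and less RNA per cell cannot be told apart. Of 6 measured B cell markers, the sum was 2.85 to 30.8 CPM in WT, 1.45 to 3.85 CPM in LysM-DKO, and 3.11 and 15.3 CPM in ABCG1KO. In WT, replicate 2 had the highest B cell sum and the highest Tlr9. The highest Tlr9 of all libraries, 22.9 CPM in replicate 2 of LysM-DKO, went with a B cell sum of 1.95 CPM. The lowest Tlr9, 3.14 CPM in replicate 1 of ABCG1KO, went with a sum of 15.3 CPM. Plasmacytoid dendritic cells use Tlr7 and Tlr9, and 7 of their markers summed to 127 to 169 CPM in WT, 135 to 197 CPM in LysM-DKO, and 161 and 198 CPM in ABCG1KO, carried by Bst2 and Tcf4. Siglech was at 5.67 and 4.76 CPM in ABCG1KO and at 0 to 0.0731 CPM in every other library. Other markers of the list did not share this: Ly6d was at 0.502 and 0.0707 CPM in ABCG1KO, below its 0.828 to 4.11 CPM in WT. Cox6a2, at 0.533 and 0.495 CPM, lay within the WT range, and Klk1 was at 0 in both ABCG1KO libraries.

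Conventional dendritic cell markers summed to at most 17.7 CPM in any library and neutrophil markers to at most 24.5 CPM. T cell markers were at 42.9 to 60.4 CPM in WT, 8.09 to 13.8 CPM in LysM-DKO and 1.82 to 6.25 CPM in ABCG1KO. Lat alone was 41.1, 56.7 and 54.3 CPM in WT, while Cd3d, Cd3e, Cd3g and Cd8a were each at 0.635 CPM or less in every library. Mast cell markers were at 8.07 and 47.2 CPM in ABCG1KO and at most 3.15 CPM elsewhere. Fibroblast or mesothelial markers were at 777 to 914 CPM in WT, 680 to 1696 CPM in LysM-DKO and 164 to 1194 CPM in ABCG1KO. Their part in the results was not tested either.

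Of the other genes of the pathway, 83 tested beside the members, 10 were called higher and 11 lower in ABCG1KO against WT, 25.3% of the list beside 16% of all genes. In LysM-DKO against WT none was called, where 0.0362% of all genes were. In ABCG1KO against LysM-DKO 11 were higher and 8 lower, 22.9% of the list beside 13.4% of all genes. The counts per list below are against WT, where 7.21% of all genes were called higher and 8.83% lower. None of these shares was tested against that of all genes. Calls of these genes under the alternatives, the sex term among them, are not given here. The median log2 fold change of the 83 genes against WT was 0.21, beside 0.01 for all genes.

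Among 7 tested accessory and ligand-transfer proteins, 2 fell against WT and none rose. Cd180, a relative of Tlr4 that pairs with Ly86, was at 279, 267 and 219 CPM in WT and at 117 and 163 CPM in ABCG1KO, a log2 fold change of -0.87 (adjusted p 0.0369). Ly86 itself went the other way, with a log2 fold change of 0.44 against WT that did not pass (adjusted p 0.291). Against LysM-DKO, Ly86 was called higher, at 1.07 (adjusted p 0.0336). Hmgb1, a nuclear protein that can act as a ligand outside the cell, had a log2 fold change of -1.03 (adjusted p 0.0180), but shares 22.7% of its windows with other genes. Ly96, the partner of Tlr4 in LPS binding, was at 20.4 CPM in WT and 16.0 CPM in ABCG1KO on average and did not pass (adjusted p 0.328). Lbp, which carries LPS in serum, was at 30.6 CPM in replicate 2 of WT and at most 2.78 CPM in the other WT libraries, beside 26.2 and 14.7 CPM in ABCG1KO.

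Among 5 tested adaptors, Ticam1, the adaptor of Tlr3 and of Tlr4 in endosomes, was the one that changed. It was at 49.2, 55.2 and 42.6 CPM in WT, at 56.0, 43.7 and 42.8 CPM in LysM-DKO, against 24.8 and 24.4 CPM in ABCG1KO. It fell by 1.00 on the log2 scale against WT (SE 0.175, adjusted p 0.00870). Ticam1 and the receptors that use it, Tlr3 and Tlr4, were thus all lower in ABCG1KO. Myd88, the adaptor of most receptors, was at 56.9 CPM in WT and 77.1 CPM in ABCG1KO on average, with a log2 fold change of 0.44 (adjusted p 0.123). Tirap and Ticam2, the bridging adaptors, had adjusted p-values of 0.622 and 0.969.

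Of 12 tested genes for trafficking and folding of the receptors, 2 fell and none rose against WT. Rab7b, a GTPase of late endosomes, was at 374, 343 and 316 CPM in WT and at 52.8 and 130 CPM in ABCG1KO, a log2 fold change of -1.92 (adjusted p 0.0116). Slc15a3, a lysosomal peptide transporter, had one of -1.36 (adjusted p 0.00391), with 26.8% of its windows shared with another gene. Unc93b1, the chaperone that carries endosomal receptors from the endoplasmic reticulum, was at 868, 819 and 778 CPM in WT and at 927 and 796 CPM in ABCG1KO, with overlapping groups (log2 fold change 0.07, adjusted p 0.819).

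Of 9 tested proteases and nucleases of endosomes, 4 fell and none rose, with a median log2 fold change of -1.06 for the list. Ctsk, cathepsin K, was at 309, 167 and 468 CPM in WT and at 20.0 and 29.4 CPM in ABCG1KO, a log2 fold change of -3.67 (adjusted p 0.00370). Ctss, cathepsin S, had -1.06 (adjusted p 0.0170), Pld3, an exonuclease of single-stranded nucleic acid, -1.58 (adjusted p 0.0189), and Dnase2a, the acid DNase, -1.21 (adjusted p 0.00939). Dnase2a shares 27.5% of its windows with other genes.

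Of 13 transcription factors, 3 rose and none fell, all of them NF-kappa B subunits: Relb from 26.0, 27.1 and 29.6 CPM in WT to 96.7 and 66.8 CPM in ABCG1KO (log2 fold change 1.57, adjusted p 0.00103), Nfkb2 by 1.12 (adjusted p 0.000921) and Nfkb1 by 1.01 (adjusted p 0.00870). Nfkb2 shares 14.9% of its windows. The subunits Rela (log2 fold change 0.22, adjusted p 0.464) and Rel (0.63, adjusted p 0.354) did not pass and are named here after their values were seen. Of 19 kinases and ubiquitin ligases, Traf3, which links receptors to interferon and restrains noncanonical NF-kappa B, rose by 1.08 (adjusted p 0.00206) and Ikbkg, the regulatory subunit of the I-kappa B kinase, by 0.59 (adjusted p 0.0248). The other 17 did not pass.

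Of 18 negative regulators, 5 rose and 2 fell. Nfkbia, the inhibitor that holds NF-kappa B in the cytoplasm, was at 42.8, 39.8 and 50.7 CPM in WT and at 258 and 103 CPM in ABCG1KO (log2 fold change 2.02, adjusted p 0.00630). Irak3, a kinase-like brake on Myd88 signalling, rose by 1.06 (adjusted p 0.00762), Nfkbiz by 2.41 (adjusted p 0.00984) and the RNase Zc3h12a by 1.24 (adjusted p 0.0146). Lilrb4a, an inhibitory receptor, had a log2 fold change of -1.53 (adjusted p 0.0142), with 47.2% of its windows shared.

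The genes most like a member in pattern were sought over the 8 libraries among 8510 genes with a mean of at least 10 CPM, by the root mean square difference of centred log2 CPM. For Tlr2 they were Psme2b (difference 0.50, with 69.3% of its windows shared, mainly with Psme2), Orai2 (0.55) and Marcksl1 (0.57). For Tlr3 they were Maml2 (0.11), Zfp748 (0.14) and Iqsec2 (0.16). No gene matched Tlr2 as closely as Maml2 matched Tlr3, but this difference grows with the size of a gene's own changes. Those were larger for Tlr2, so the closeness of the matches cannot be compared between Tlr2 and Tlr3.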

How the data were processed

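RNA of primary macrophages was sequenced in 8 libraries. The authors deposited raw counts per gene symbol, 1 file per library, with the closing lines of htseq-count. The submitters' processing notes list STAR 2.7.9a, TopHat, HTSeq 0.11.2, DESeq2 1.30.1, limma and mm10, with no role or order, and the annotation and strand setting are not given in the sources used here.

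No count was changed before the analysis in R 4.3.3 with edgeR 4.0.16. The filterByExpr step kept 13821 of 24421 genes, and 6588 had no count. The counter's special lines (reads outside genes, in several genes or at several loci) were left out: 4.26% to 13.8% of counted reads lay outside genes, 0.614% to 0.980% in several genes and 2.65% to 6.93% at several loci. All 8 libraries entered a quasi-likelihood fit with TMM factors and a term per genotype (5 residual degrees of freedom). A gene was called where its p-value, adjusted by Benjamini-Hochberg across the genes tested, was under 0.05. The SE of a log2 fold change was derived from the test, as its absolute value over the square root of the F statistic. The empirical Bayes step used edgeR's robust option, which was set after results without it had been seen, and that fit is an alternative chosen after seeing the data. The fit was tested on simulated counts with 200 genes changed by a known fold. In LysM-DKO against WT it called 32.0% of those changed 2-fold and 70.5% of those changed 4-fold. In ABCG1KO against WT it called 17.5% and 62.5%. Apart from the 200 genes, the simulation gave every group the WT means. In the data, 2216 genes were called in ABCG1KO against WT and 5 in LysM-DKO against WT. The adjustment of p depends on how many genes differ, so these shares are not the sensitivity of the real comparisons. A member that did not pass may still differ. CPM are counts over the TMM-scaled library size.

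Lengths, positions and shared 50-base windows came from GENCODE M21 (GRCm38) and promoters from RefSeq (GRCm38.p6). Pathway genes past the threshold were named, at most 5 per list by adjusted p, and any gene of lists of up to 8. Members, lists and rules were chosen with earlier results of these data known. A wide kappa B motif was added after the promoter sequences were seen. Alternatives were RLE factors, library size only, no filter, at least 10 counts in every library, both groups alone, a replicate block, a sex term, each library left out and DESeq2 1.42.0.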

Additional observations from a re-analysis of the deposited data

Results flagged for a closer look

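Reads that the counter could not assign stood apart in the ABCG1KO libraries, outside the main measurement. The share of counted reads with several alignments was 6.84% in ABCG1KO, against 2.94% in WT and 2.80% in LysM-DKO. The share outside annotated genes was 12.0%, against 5.29% and 5.44%. Both ABCG1KO libraries were above all 6 others in both shares. Of the 4 members that passed the test, Tlr2 and Cd14 shared no 50-base window with another gene, Tlr4 shared 0.216% and Tlr3 5.30%.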

How the results depend on the processing

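Tlr2 passed the test in ABCG1KO against WT and against LysM-DKO under all 17 alternatives, and no member passed in LysM-DKO against WT under any. Against WT, Cd14 passed in 13 of 17, Tlr4 in 11 and Tlr3 in 8, and against LysM-DKO Tlr3 in 15, Tlr4 in 12 and Cd14 in 8. Those 4 kept their directions throughout in both comparisons. With the sex term, the log2 fold changes of Tlr1 and Tlr6 in ABCG1KO against WT turned to -0.26 and -0.26 (adjusted p 0.765 and 0.639). In LysM-DKO against WT, Tlr4 turned to -0.02 and -0.08 without replicate 1 or 3 of WT, and to -0.0015 and -0.095 without replicate 1 or 2 of LysM-DKO, in a range of -0.095 to 0.34 over the libraries left out. Tlr8 turned to -0.12 without replicate 1 of WT (range -0.12 to 0.37), and Tlr9 to -0.091 without replicate 2 of LysM-DKO (range -0.091 to 0.86). In all of these the cause was not tested.

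Over all genes, LysM-DKO against WT gave 5 calls, and 8 with both groups alone, 2 with the sex term, 3 without the robust option and 299 with DESeq2. ABCG1KO against WT gave 2216 calls, and 488 with the sex term. ABCG1KO against LysM-DKO gave 1853, and 948 with both groups alone, 719 with the sex term and 2982 with DESeq2. DESeq2 called 6 members in each ABCG1KO comparison, adding Tlr7 and Tlr8 against WT, and Tlr8 and Tlr13 against LysM-DKO. Of the members, 4 passed in both ABCG1KO comparisons and 1 in each with the sex term, which also moved the surface minus endosomal median against WT from 1.17 to 0.53. With library size only, all genes tested had a median of 0.25 against WT and the split of calls 2074 higher and 856 lower, against 996 and 1220. There Tlr4 (-0.95, adjusted p 0.0574) and Tlr3 (-0.74, adjusted p 0.0862) were lost and Tlr7 (1.12, adjusted p 0.0436) was gained. The split against LysM-DKO was 1017 and 877, against 780 and 1073.

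Correlations of same-numbered libraries ran from -0.0917 to 0.426, and between WT and LysM-DKO they were 0.0413, 0.426 and -0.0145. Not every pair deviated together, so the numbers were not taken to pair the samples, although 0.426 was the highest of all pairs. With the replicate block, all genes called were 0 in LysM-DKO against WT, 1456 in ABCG1KO against WT and 1024 in ABCG1KO against LysM-DKO, and 2 and 3 members passed in the last 2 comparisons. Cd14 (adjusted p 0.0627) and Tlr3 (adjusted p 0.0688) were lost against WT, and Cd14 (adjusted p 0.130) against LysM-DKO.

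Leaving out each library in turn gave 0 to 8 genes called in LysM-DKO against WT, 853 to 2090 in ABCG1KO against WT and 561 to 1960 in ABCG1KO against LysM-DKO, with both ABCG1KO minima without its replicate 1. Members called ranged from 0 to 0, 1 to 5 and 1 to 5. The surface minus endosomal median ranged from -0.53 to -0.30, 0.77 to 1.495 and 1.27 to 2.09. Where ABCG1KO was left with 1 library, that library was assumed to vary like the other groups. Tlr9 (100 to 941 counts) and Tlr3 (226 to 985 counts) were the members of lowest depth.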
